A study of Mus musculus with 9 samples.

Results

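The genes described here make the building blocks of DNA and RNA and supply the one-carbon units that this synthesis consumes. They were listed as 36 genes in 4 branches: 8 genes of deoxynucleotide supply, 7 of pyrimidine synthesis, 13 of purine synthesis, and 8 of folate and serine metabolism. For each gene the probe set brightest on average over the 9 arrays was taken, which gave values for 35 of the 36 members among 30711 genes tested. Impdh2, an isoform of IMP dehydrogenase, was named by no probe set used here and was not analysed here. The probe set of Pfas also names the microRNA gene Mir3062, and those of the other 34 members name 1 gene each.

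RNA was measured in mouse pmel1 CD8+ T cells, whose transgenic receptor recognises the gp100 peptide of melanocytes and melanomas. Thy1.1+ CD8+ cells from pmel1 donors, 2000000 per recipient, were given to naive congenic mice that then received 100 µg of hgp100 peptide into a vein. Spleen CD8+ cells were enriched by negative selection on day 4 after the peptide and sorted for Thy1.1 to a stated purity above 99%, and RNA came from at least 400000 cells of each mouse. There were 3 mice and 3 arrays in each of 3 groups. Combination mice received 200 µg of the agonist anti-CD27 antibody AT124, 100 µg of anti-PD-1 (RMP1-14) and 100 µg of anti-PD-L1 (10F.9G2). Anti-CD27 mice received AT124 with 200 µg of isotype control antibody. Anti-PD-1/L1 mice received both blocking antibodies with 200 µg of isotype control antibody. All groups had the transferred cells, the peptide and 400 µg of antibody in total, and none of the groups had peptide with isotype antibody only, so every difference below is between treatments. All transferred cells share 1 receptor specificity, and ages of the mice were not given in the sources used here.

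A T cell that starts to divide after antigen must enlarge its nucleotide pools, and it does so mainly by making purines and pyrimidines anew. Purine synthesis and the methylation of dUMP to dTMP both draw on formyl and methylene groups carried by folate, which are taken mostly from serine. Ribonucleotide reductase then converts ribonucleotides to deoxyribonucleotides, and its transcripts are known to be made mainly around S phase.

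Promoters are shown for 4 of the 7 members that rose in the combination group against anti-CD27, because together they hold each kind of searched sequence that any of the 7 held. RefSeq promoter windows (GRCm38.p6, 250 bases before to 50 bases after the start site) matched 33 of the 35 measured members by symbol, with no window for Dhodh or Pfas. Printed below are the 250 bases before the start site, 5′ to 3′ on the gene's strand, with matches in capitals. Rrm1 lies on the plus strand (chr7:102441445-102441694) and Rrm2 on the plus strand (chr12:24708004-24708253), whereas Tyms (chr5:30073626-30073875) and Ppat (chr5:76951579-76951828) lie on the minus strand.
Rrm1: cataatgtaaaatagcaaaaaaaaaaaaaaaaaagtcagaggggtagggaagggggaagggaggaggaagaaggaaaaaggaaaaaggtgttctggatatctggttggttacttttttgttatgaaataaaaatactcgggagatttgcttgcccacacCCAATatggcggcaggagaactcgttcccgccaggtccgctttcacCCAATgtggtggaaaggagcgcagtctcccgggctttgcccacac
Rrm2: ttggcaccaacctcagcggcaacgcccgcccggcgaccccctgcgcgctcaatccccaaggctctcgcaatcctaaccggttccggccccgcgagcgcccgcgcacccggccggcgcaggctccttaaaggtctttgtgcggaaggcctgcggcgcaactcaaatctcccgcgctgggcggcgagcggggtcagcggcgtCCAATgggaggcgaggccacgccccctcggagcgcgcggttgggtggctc
Tyms: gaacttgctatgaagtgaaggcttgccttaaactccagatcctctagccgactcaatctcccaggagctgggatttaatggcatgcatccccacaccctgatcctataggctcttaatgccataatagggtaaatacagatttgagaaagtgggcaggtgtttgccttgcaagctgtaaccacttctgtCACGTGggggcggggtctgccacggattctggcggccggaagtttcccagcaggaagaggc
Ppat: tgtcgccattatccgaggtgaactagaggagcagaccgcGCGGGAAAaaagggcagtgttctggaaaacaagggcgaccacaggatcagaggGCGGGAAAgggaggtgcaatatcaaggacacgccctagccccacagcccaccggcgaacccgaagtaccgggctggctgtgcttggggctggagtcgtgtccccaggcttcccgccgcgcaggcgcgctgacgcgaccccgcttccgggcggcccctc
Capitals mark CCAAT or its reverse complement in Rrm1 and Rrm2, CACGTG in Tyms, and the reverse complement of TTTCCCGC in Ppat.

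The search covered both strands of the whole 300-base window. CCAAT, the CCAAT box, began 91 and 45 bases before the start of Rrm1, 50 before Rrm2, 69 before Mthfd1 and 33 before Gart, and 37.4% of all 32851 windows hold it. CACGTG, an E-box bound by Myc among others, began 61 bases before the start of Tyms and is in 7.15% of all windows. The E2F sequences searched were TTTCCCGC, TTTCGCGC, TTTGCCGC and TTTGGCGC. They were found 211 and 158 bases before the start of Ppat, and 2.26% of all windows hold any of them. Ctps held none of these sequences, nor TGATGNAA (an ATF4 and C/EBP core, in 3.97% of all windows), in either of its 2 windows. Among all members with a window, CCAAT was in 15 of 33, CACGTG in 5, an E2F sequence in Ppat and Prps2, and TGATGNAA in Prps1. Some members have 2 windows. Counted by window, as the shares above are, CCAAT was in 38.5% of the 39 member windows and CACGTG in 15.4%. An E2F sequence was in 5.13% of them and TGATGNAA in 2.56%. The start site of Ppat lies 276 bases from that of Paics on the other strand, and their transcripts overlap there.

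All values below are log2 levels of a probe set on an array, and differences are log2 differences. A gene was called where limma's adjusted p, taken over all 30711 genes, was under 0.05. The anti-PD-1/L1 arrays stood apart from the other 6. Positive control probe sets averaged 6.81 (combination), 6.70 (anti-CD27) and 5.75 (anti-PD-1/L1), while background control probe sets averaged 3.25, 3.27 and 4.06 in the same order of groups. The SD over all genes on an array averaged 2.25 (combination), 2.22 (anti-CD27) and 2.03 (anti-PD-1/L1). The 3 arrays of anti-PD-1/L1 did not overlap the other groups in any of these measures, for which an exact permutation test of 3 against 3 arrays cannot go below p = 0.1. Combination and anti-CD27 lay closer but were also separated in positive controls (6.76 to 6.83 against 6.68 to 6.72) and in SD (2.24 to 2.25 against 2.21 to 2.23). Their background controls overlapped, as did their bacterial and phage controls. With the positive controls as a covariate the same 7 members were called between them, but these controls and treatment cannot be told apart there either. The tests of single members against anti-PD-1/L1 are given with their values after quantile normalization of the arrays, and signal quality and treatment cannot be told apart in them. The labelled cell type was checked on 7 CD8 T cell markers, which averaged 9.49 (combination), 9.63 (anti-CD27) and 8.70 (anti-PD-1/L1). The lists for B cells, myeloid cells, NK cells, CD4 T cells, erythroid cells and dendritic cells had group averages between 2.29 and 4.15. Each of these 6 lists was highest in anti-PD-1/L1: erythroid markers averaged 3.41 (combination), 3.38 (anti-CD27) and 4.15 (anti-PD-1/L1), B cell markers 3.72, 3.76 and 4.14, and NK markers 2.85, 2.46 and 2.86. Background controls were also highest there. Less these controls, Cd79a, Hba-a1 and Hbb-bt were the only markers of the 6 lists with a higher mean in anti-PD-1/L1 than in combination. The part of these lists in the differences from anti-PD-1/L1 was not tested.

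**Figure D1:**
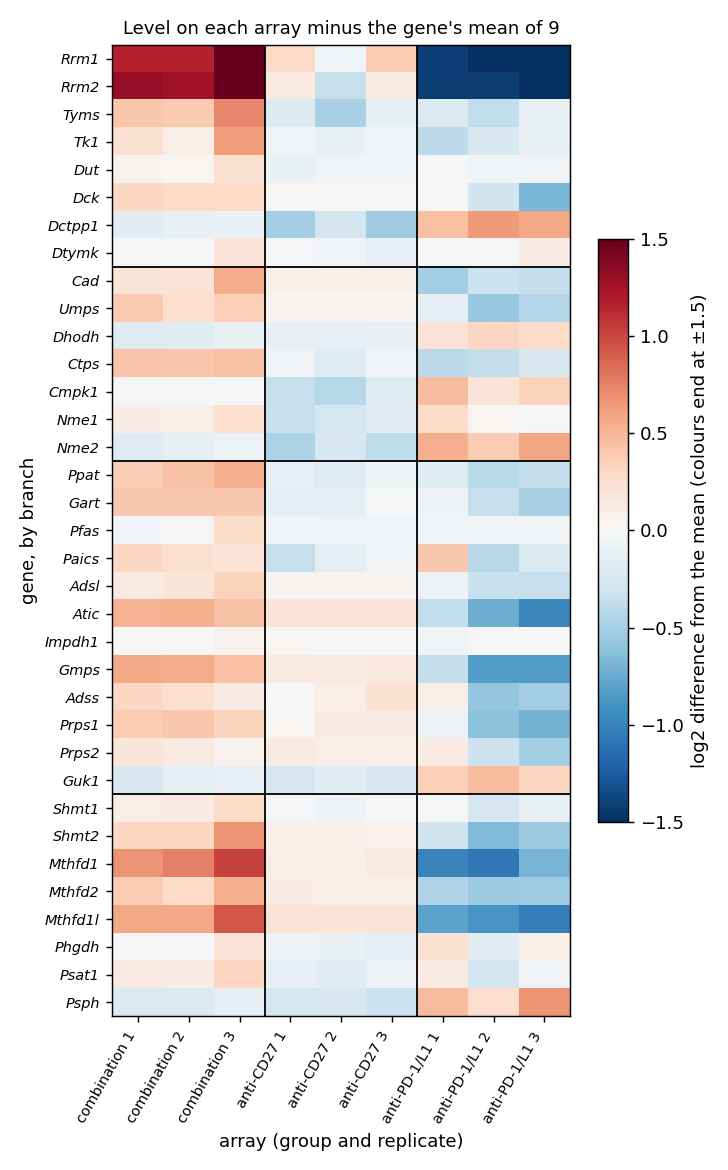
Level of each of the 35 measured members on each of the 9 arrays, as the log2 difference from that gene's mean over the 9 arrays (colour scale ends at ±1.5). Rows run by branch (deoxynucleotide, pyrimidine, purine, folate and serine, separated by black lines) and columns by group. Combination columns are red in most rows, and Dctpp1, Dhodh, Cmpk1, Nme2, Guk1 and Psph are red in the anti-PD-1/L1 columns.

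The combination group had more transcript of both main subunits of ribonucleotide reductase, of thymidylate synthase and of single enzymes of the other branches than the anti-CD27 group had. Of the 35 measured members, 7 (20.0%) rose in combination against anti-CD27, namely Rrm1, Rrm2, Tyms, Ctps, Ppat, Gart and Mthfd1, where 1.28% of all genes were called higher. In limma 0 members were called lower, against 0.527% of all genes, and none was lower at an unadjusted p under 0.05 either. The other 28 were not called. In a fit of the brighter 50% of genes only, to which all 35 belong, 10 members were called higher, as were 3.67% of those genes. The median difference was 0.29 over the members and -0.003 over all genes. Of the 35, 34 had a difference above 0, against 47.6% of all genes, and 29 (82.9%) had all 3 combination arrays above all 3 anti-CD27 arrays, against 12.1% of all genes. With only the 6 arrays of these groups in the fit, 14 members were called higher where 3.99% of all genes were, and the 7 that joined were Dck, Umps, Nme1, Paics, Atic, Gmps and Prps1. In anti-CD27 the SD was 0.000 for Dck, Umps and Atic, 0.008 for Gmps, and 0.058 to 0.149 for Nme1, Paics and Prps1. In anti-PD-1/L1, whose arrays that fit leaves out, the SD of these genes ran from 0.151 to 0.424. The part of equal values in these calls was not tested. In bulk RNA, more cells in cycle and more transcript per cell cannot be told apart.

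**Figure D2:**
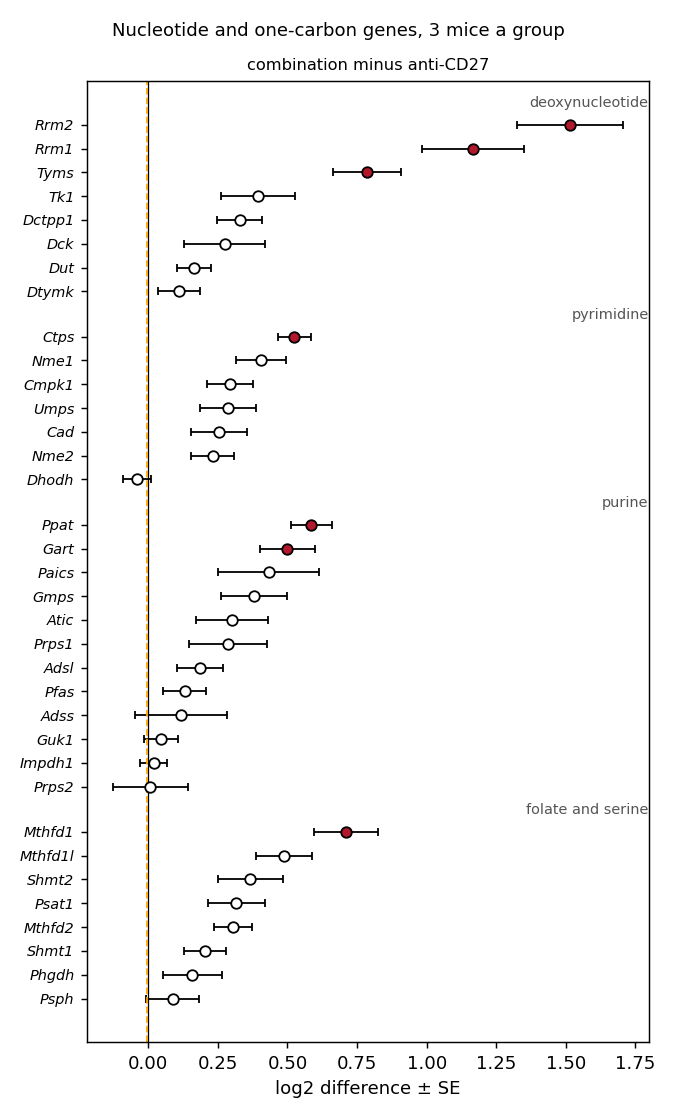
Log2 difference between combination and anti-CD27 with limma's SE for the 35 measured members, by branch and ordered by size, with 3 mice a group. Filled points passed an adjusted p under 0.05, the solid line marks 0 and the dashed line marks the median of all genes (-0.003). Rrm2, Rrm1 and Tyms lie farthest to the right, and Dhodh is the member left of 0.

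Ribonucleotide reductase showed the largest differences among the members. Rrm1 encodes its large, catalytic subunit. Its levels were 8.08, 8.06 and 8.69 in combination, 7.20, 6.85 and 7.29 in anti-CD27 and 5.50, 5.28 and 5.25 in anti-PD-1/L1. No 2 groups overlapped, and combination replicate 3 was the highest of all. Rrm1 rose by 1.16 ± 0.18 in combination against anti-CD27 (SE, 2.24-fold; limma's adjusted p = 0.017). Leaving out anti-CD27 replicate 1 or 2 ended the call, at an adjusted p of up to 0.0775.

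Rrm2 encodes the small subunit, which holds the radical and is the cell-cycle limited part of the enzyme. It read 7.75, 7.71 and 8.36 in combination, 6.59, 6.10 and 6.59 in anti-CD27 and 5.03, 5.03 and 4.88 in anti-PD-1/L1. The groups were again fully separated, with the highest value once more on combination replicate 3. Rrm2 rose by 1.52 ± 0.19 in combination (2.86-fold; limma's adjusted p = 0.00732), and it stayed called in all 18 alternative fits.

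Tyms encodes thymidylate synthase, which methylates dUMP to dTMP with folate as the donor. The arrays gave 6.02, 5.99 and 6.32 in combination, 5.40, 5.11 and 5.46 in anti-CD27 and 5.39, 5.23 and 5.49 in anti-PD-1/L1. All combination arrays lay above the rest, and anti-CD27 and anti-PD-1/L1 overlapped. Tyms rose by 0.79 ± 0.12 in combination against anti-CD27 (1.72-fold; limma's adjusted p = 0.0164). The call was lost without anti-CD27 replicate 1 or 2 and without any of the 3 combination arrays, with an adjusted p of up to 0.0671.

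The other 5 deoxynucleotide genes were not called between combination and anti-CD27, though all 8 genes of the branch had every combination array above every anti-CD27 array. Tk1, the thymidine kinase of S phase, differed by 0.39 (95% interval 0.09 to 0.69). Dctpp1, which removes stray dCTP-type nucleotides, differed by 0.33 (0.14 to 0.51), Dck, the deoxycytidine salvage kinase, by 0.28 (-0.05 to 0.61) and Dut, which hydrolyses dUTP, by 0.16 (0.03 to 0.30). Dtymk, the kinase that makes dTDP, had the smallest difference of the branch. Its levels were 6.20, 6.20 and 6.43 in combination, 6.20, 6.19 and 6.11 in anti-CD27 and 6.20, 6.22 and 6.34 in anti-PD-1/L1. Those of combination and anti-CD27 nearly touched, and the difference of 0.11 ± 0.07 had a limma adjusted p of 0.878.

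Of the 7 pyrimidine genes, 1 was called between combination and anti-CD27. Ctps encodes CTP synthase, which makes CTP from UTP. It read 5.47, 5.45 and 5.48 in combination, 4.99, 4.85 and 4.98 in anti-CD27 and 4.65, 4.68 and 4.80 in anti-PD-1/L1. The 3 groups did not overlap, and the combination arrays lay close together. Ctps rose by 0.53 ± 0.06 in combination (1.44-fold; limma's adjusted p = 0.00534) and stayed called in all 18 alternative fits.

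The other 6 pyrimidine genes were not called in this comparison. Nme1, a nucleoside diphosphate kinase, differed by 0.41 (95% interval 0.20 to 0.61; limma's adjusted p = 0.0679), and after quantile normalization it was called. Cmpk1, which phosphorylates UMP and CMP, differed by 0.29 (0.11 to 0.48), Umps, which makes UMP, by 0.29 (0.06 to 0.52), Cad, which carries out the first steps of the pathway, by 0.25 (0.02 to 0.48) and Nme2 by 0.23 (0.06 to 0.41). Dhodh, the mitochondrial dihydroorotate dehydrogenase, was the member with a difference below 0. It had 4.85, 4.86 and 4.94 in combination, 4.92, 4.92 and 4.94 in anti-CD27 and 5.25, 5.36 and 5.31 in anti-PD-1/L1. Combination and anti-CD27 overlapped in Dhodh, with a difference of -0.04 ± 0.05 (95% interval -0.16 to 0.07).

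In purine synthesis the enzyme of the committed step and an enzyme of the following steps rose. Ppat encodes the amidotransferase that commits ribose phosphate to purine synthesis. Its values were 6.41, 6.48 and 6.57 in combination, 5.91, 5.84 and 5.96 in anti-CD27 and 5.86, 5.64 and 5.68 in anti-PD-1/L1. Combination lay above both other groups, which overlapped each other. Ppat rose by 0.59 ± 0.07 against anti-CD27 (1.5-fold; limma's adjusted p = 0.00768) and stayed called in all 18 alternative fits.

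The protein of Gart carries out 3 steps of the pathway, among them a transfer from 10-formyl folate. Gart read 6.71, 6.71 and 6.70 in combination, 6.15, 6.16 and 6.30 in anti-CD27 and 6.23, 5.95 and 5.80 in anti-PD-1/L1. The combination arrays were nearly equal and above the rest. Gart rose by 0.50 ± 0.10 against anti-CD27 (1.41-fold; limma's adjusted p = 0.0481). This call was the least stable of the 7: it was lost in 9 of 18 alternative fits, among them those without any 1 of the anti-CD27 or combination arrays, with an adjusted p of up to 0.207.

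The remaining 10 measured purine genes were not called between combination and anti-CD27. Paics, which shares its start region with Ppat, had 8.51, 8.44 and 8.41 in combination, against 7.86, 8.06 and 8.15 in anti-CD27. Combination was above anti-CD27 on every array, but the difference of 0.43 (95% interval 0.01 to 0.85) had an SE of 0.18, against 0.07 for Ppat. Gmps, which makes GMP, differed by 0.38 (0.11 to 0.65), Atic, which closes the purine ring, by 0.30 (0.01 to 0.59), and Prps1, a phosphoribosyl pyrophosphate synthetase, by 0.29 (-0.03 to 0.61). Adsl (0.19), Pfas (0.13), Adss (0.12), Guk1 (0.05) and Impdh1 (0.02) were nearer to 0. Prps2, a second phosphoribosyl pyrophosphate synthetase, was the closest, with 7.46, 7.41 and 7.34 in combination, 7.42, 7.38 and 7.38 in anti-CD27 and 7.40, 6.96 and 6.77 in anti-PD-1/L1. Its groups overlapped, and the difference was 0.01 (95% interval -0.30 to 0.32).

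Of the folate and serine genes, Mthfd1 was called. Its protein is the cytosolic trifunctional enzyme that interconverts methylene, methenyl and formyl folate. The levels were 6.38, 6.46 and 6.73 in combination, 5.81, 5.78 and 5.84 in anti-CD27 and 4.72, 4.63 and 5.01 in anti-PD-1/L1. The groups were separated in that order on every array. Mthfd1 rose by 0.71 ± 0.11 in combination against anti-CD27 (1.64-fold; limma's adjusted p = 0.0195), a call lost after quantile normalization and without any 1 anti-CD27 array or combination replicate 2 or 3, with an adjusted p of up to 0.0966.

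All 8 folate and serine genes had every combination array above every anti-CD27 array. Among the 7 not called, Mthfd1l, the mitochondrial formyl folate synthetase, differed by 0.49 (95% interval 0.26 to 0.72; limma's adjusted p = 0.0552). Shmt2, the mitochondrial enzyme that takes the one-carbon unit from serine, differed by 0.37 (0.10 to 0.63), and Mthfd2, its partner dehydrogenase, by 0.30 (0.15 to 0.46). Psat1 (0.32) and Phgdh (0.16) of serine synthesis and Shmt1 (0.20), the cytosolic counterpart of Shmt2, were also not called. Psph, the last enzyme of serine synthesis, had 5.31, 5.31 and 5.38 in combination, 5.26, 5.28 and 5.20 in anti-CD27 and 6.00, 5.78 and 6.20 in anti-PD-1/L1. Combination and anti-CD27 lay close together without overlap, and the difference was 0.09 ± 0.09.

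**Figure D3:**
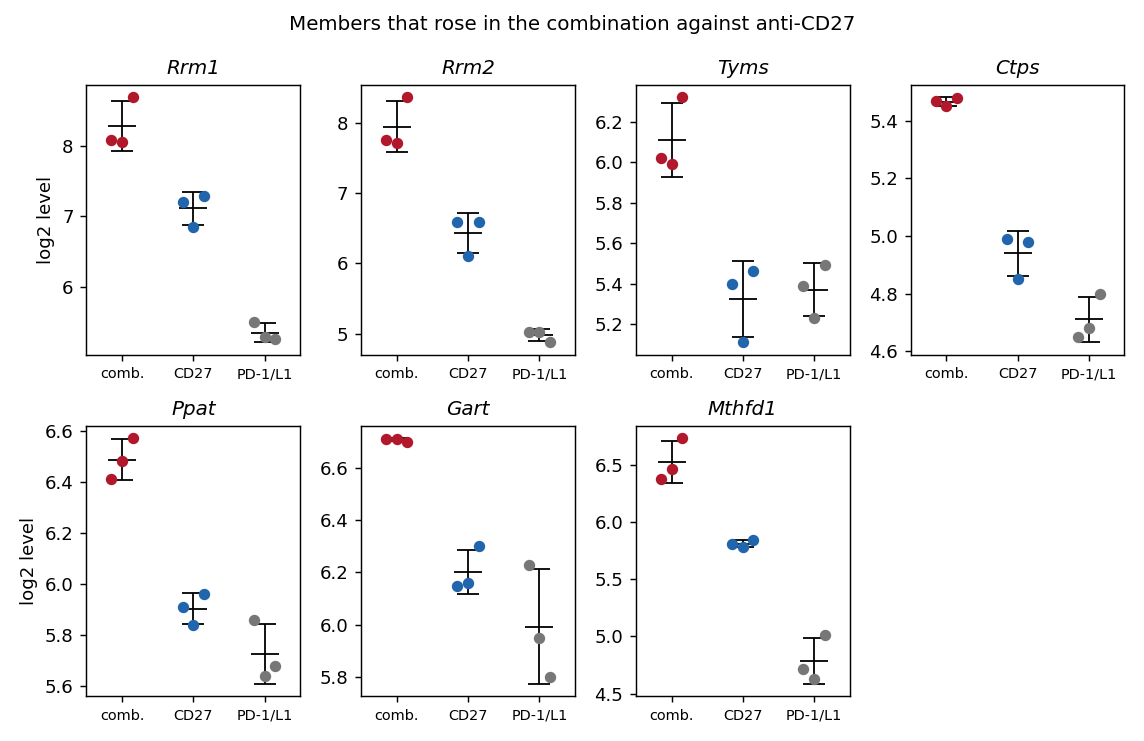
Log2 level on each array (points), with the group mean and SD of 3 mice (bars), for the 7 members that rose in combination against anti-CD27. Each panel has its own vertical range. Combination points lie above all others in every panel, whereas anti-CD27 and anti-PD-1/L1 overlap for Tyms, Ppat and Gart.

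The arrays within a group were not equally high. Combination replicate 3 had the highest value of its group in 26 of 35 members and in 7 of the 8 deoxynucleotide genes. Mki67, a marker of cycling cells, was also highest there, with 8.14, 8.18 and 9.11 in combination, against 7.79, 6.86 and 7.54 in anti-CD27. Its arrays did not overlap between these groups, but Mki67 was not called. Without combination replicate 3, 4 members were called higher than in anti-CD27, namely Rrm1, Rrm2, Ctps and Ppat. In the anti-CD27 group 15 of 35 members had the same deposited value on 2 or more arrays (to 4 decimals), where 33.4% of all genes did. Umps at 5.98 and Atic at 6.43 are examples, equal on all 3 arrays.

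Against anti-PD-1/L1, most of the members were higher in combination and a smaller set was lower. In combination 22 of 35 members rose against anti-PD-1/L1, where 19.0% of all genes did, and 6 fell, where 53.3% of all genes did. The 6 were Dctpp1, Dhodh, Cmpk1, Nme2, Guk1 and Psph, and Dut, Dtymk, Nme1, Pfas, Paics, Impdh1 and Phgdh were not called. Background control probe sets were higher in anti-PD-1/L1 as well (4.06, against 3.25 in combination and 3.27 in anti-CD27). Less these controls, the means of all 6 lay above anti-PD-1/L1 in combination, such as Nme2 at 5.33 against 5.17. In anti-CD27 Dctpp1 and Nme2 still lay below. That subtraction shifts all genes alike and was not tested. The median was 0.56 over the members and -0.26 over all genes. After quantile normalization 16 members were higher (23.3% of all genes) and 11 lower (29.8%), with a median of 0.25. With the positive control probe sets as a covariate the counts were 1 higher (2.92% of all genes) and 1 lower (3.33%), and the median turned to -0.15. The member called higher was then Mthfd1. Prps2, called higher in the fit described, was the member called lower, and none of the 6 named above stayed called. The differences of Dck, Umps, Gart, Adsl, Atic, Gmps, Adss, Prps1, Prps2, Shmt1 and Psat1, all called higher in the fit described, then lay below 0. All 35 members belong to the brighter 50% of genes, among which 36.8% were called higher and 40.7% lower.

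In anti-CD27 against anti-PD-1/L1, 15 of 35 members rose, where 17.1% of all genes did, and 7 fell, where 53.7% of all genes did. The 7 were the 6 named above and Nme1. Among the brighter 50% of genes, to which all 35 members belong, 33.2% were called higher and 41.3% lower. The median was 0.18 over the members and -0.26 over all genes. It turned to -0.03 after quantile normalization, where 10 members were higher (21.2% of all genes) and 13 lower (30.7%). It was -0.29 with the positive control covariate, where limma called 0 members higher (2 at an unadjusted p under 0.05, and 3.54% of all genes) and 2 lower (4.35% of all genes). Those called lower were Prps2, called higher in the fit described, and Dck, not called there. None of the 7 that fell stayed called. This comparison and that of combination share the anti-PD-1/L1 arrays.

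**Figure D4:**
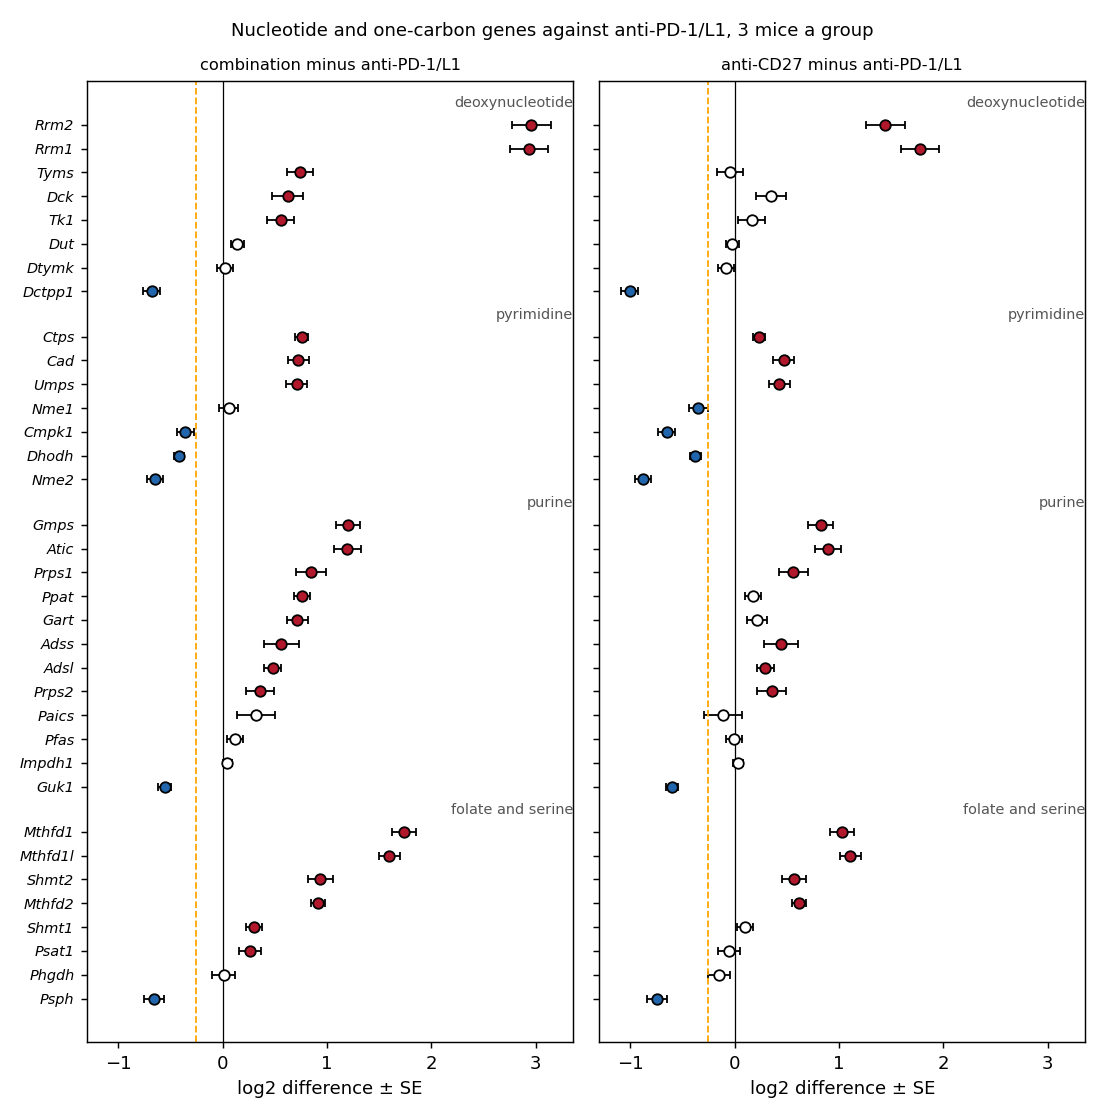
Log2 difference with limma's SE for the 35 measured members, combination minus anti-PD-1/L1 (left) and anti-CD27 minus anti-PD-1/L1 (right), by branch in the order of the left panel. Both panels share the horizontal scale and the same 3 anti-PD-1/L1 arrays. Red points were called higher, blue points lower and open points were not called, and the dashed line is the median of all genes (-0.26). Rrm1 and Rrm2 lie farthest to the right in both panels.

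Deoxynucleotide supply held the largest of these differences. Rrm1 was higher by 2.94 ± 0.18 in combination and by 1.77 ± 0.18 in anti-CD27 than in anti-PD-1/L1 (limma's adjusted p = 3.15e-06 and 5.25e-05), and by 2.72 and 1.58 after quantile normalization. Rrm2 was higher by 2.96 ± 0.19 in combination and by 1.44 ± 0.19 in anti-CD27 (adjusted p = 3.8e-06 and 0.000193), and by 2.84 and 1.38 after quantile normalization. Tyms was higher by 0.74 ± 0.12 in combination (adjusted p = 0.000646), whereas its difference in anti-CD27 was -0.05 (95% interval -0.32 to 0.23). After quantile normalization the values of Tyms were 0.54 and -0.16.

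Salvage kinases of deoxynucleosides were higher in combination as well. Tk1 read 5.92, 5.78 and 6.32 in combination, 5.62, 5.59 and 5.62 in anti-CD27 and 5.30, 5.45 and 5.59 in anti-PD-1/L1. The 3 groups were separated, with anti-CD27 and anti-PD-1/L1 at almost the same upper values. Tk1 was higher in combination than in anti-PD-1/L1 by 0.56 ± 0.13 (limma's adjusted p = 0.00478), and its call was lost after quantile normalization, at 0.35. Dck had 6.72, 6.70 and 6.70 in combination, 6.43, 6.43 and 6.43 in anti-CD27 and 6.42, 6.11 and 5.72 in anti-PD-1/L1. Its anti-PD-1/L1 arrays were spread widely and the others hardly at all. Dck was higher in combination by 0.62 ± 0.14 (limma's adjusted p = 0.00436), a call also lost after quantile normalization, at 0.25.

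Dctpp1 went the other way. Its levels were 6.56, 6.61 and 6.62 in combination, 6.20, 6.44 and 6.18 in anti-CD27 and 7.17, 7.36 and 7.30 in anti-PD-1/L1. Every anti-PD-1/L1 array lay above every other array. Dctpp1 fell by 0.68 ± 0.08 in combination and by 1.01 ± 0.08 in anti-CD27 against anti-PD-1/L1 (limma's adjusted p = 0.000102 and 1.55e-05), and by 1.09 and 1.37 after quantile normalization.

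In pyrimidine synthesis Cad, Umps and Ctps were called higher in both groups than in anti-PD-1/L1, and Dhodh, Cmpk1 and Nme2 lower. Cad had 5.68, 5.72 and 6.06 in combination, 5.57, 5.57 and 5.57 in anti-CD27 and 4.99, 5.18 and 5.14 in anti-PD-1/L1. It was higher than in anti-PD-1/L1 by 0.72 ± 0.10 in combination and by 0.47 ± 0.10 in anti-CD27 (limma's adjusted p = 0.000239 and 0.00291), and by 0.64 and 0.42 after quantile normalization. Umps read 6.33, 6.19 and 6.29 in combination, 5.98, 5.98 and 5.98 in anti-CD27 and 5.80, 5.37 and 5.50 in anti-PD-1/L1. No groups overlapped in either gene. Umps was higher by 0.71 ± 0.10 in combination and by 0.42 ± 0.10 in anti-CD27 (limma's adjusted p = 0.000266 and 0.00509). After quantile normalization its values were 0.45 and 0.21, the second not called. Ctps was higher by 0.76 ± 0.06 in combination and by 0.23 ± 0.06 in anti-CD27 (limma's adjusted p = 1.22e-05 and 0.00788), and by 0.83 and 0.35 after quantile normalization.

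Nme2, a nucleoside diphosphate kinase, and Cmpk1 were lower in both groups than in anti-PD-1/L1. Nme2 had 8.53, 8.59 and 8.64 in combination, 8.25, 8.47 and 8.34 in anti-CD27 and 9.27, 9.10 and 9.32 in anti-PD-1/L1. Cmpk1 had 6.40 on each of the 3 combination arrays, 6.08, 6.00 and 6.24 in anti-CD27 and 6.89, 6.62 and 6.77 in anti-PD-1/L1. Both genes were highest on all 3 anti-PD-1/L1 arrays. Nme2 fell by 0.65 ± 0.08 in combination and by 0.88 ± 0.08 in anti-CD27 (limma's adjusted p = 9.88e-05 and 2.37e-05), and by 0.82 and 1.03 after quantile normalization. Cmpk1 fell by 0.36 ± 0.08 in combination and by 0.65 ± 0.08 in anti-CD27 (limma's adjusted p = 0.00422 and 0.000156), and by 0.76 and 1.02 after quantile normalization. Nme1 differed by 0.06 in combination (95% interval -0.15 to 0.26), not called, and fell by 0.35 ± 0.09 in anti-CD27 (limma's adjusted p = 0.00715). After quantile normalization its values were -0.36 and -0.73, both called lower. Dhodh fell by 0.42 ± 0.05 in combination and by 0.38 ± 0.05 in anti-CD27 (limma's adjusted p = 0.000111 and 0.00022), and by 0.45 and 0.44 after quantile normalization.

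**Figure D5:**
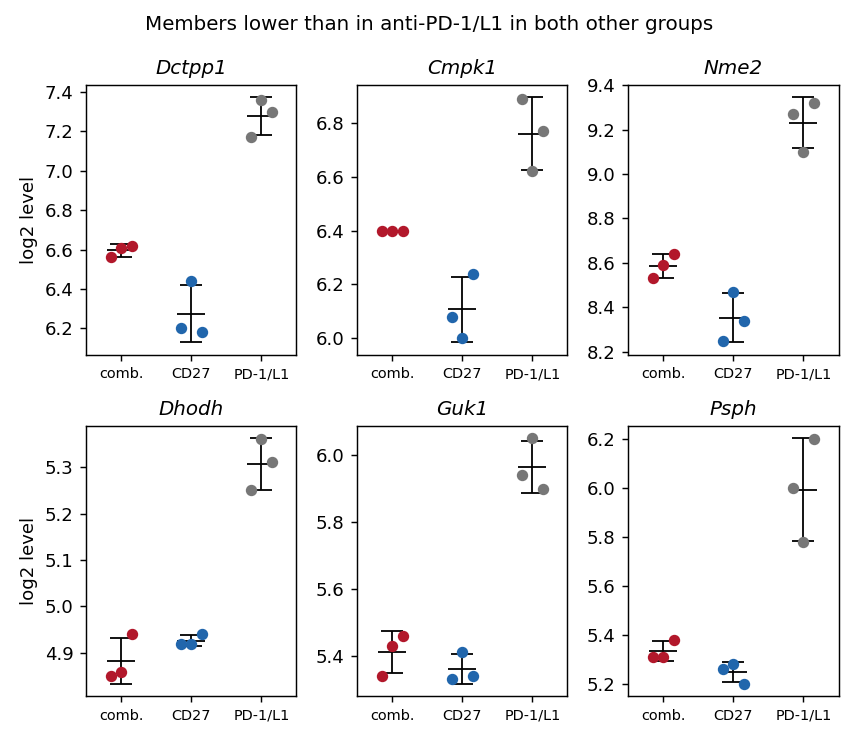
Log2 level on each array (points), with the group mean and SD of 3 mice (bars), for the 6 members called lower than in anti-PD-1/L1 in both other groups. Each panel has its own vertical range. The 3 anti-PD-1/L1 points lie above all others in every panel.

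Among purine genes Gmps and Atic had the largest differences from anti-PD-1/L1. Gmps had 7.21, 7.20 and 7.10 in combination, 6.79, 6.79 and 6.80 in anti-CD27 and 6.29, 5.80 and 5.81 in anti-PD-1/L1. Atic had 6.76, 6.77 and 6.67 in combination, 6.43 on each anti-CD27 array and 5.86, 5.50 and 5.26 in anti-PD-1/L1. In both genes the groups kept the order combination, anti-CD27, anti-PD-1/L1 without overlap. Gmps was higher by 1.20 ± 0.12 in combination and by 0.82 ± 0.12 in anti-CD27 (limma's adjusted p = 3.6e-05 and 0.000316), and by 0.83 and 0.49 after quantile normalization. Atic was higher by 1.19 ± 0.13 in combination and by 0.89 ± 0.13 in anti-CD27 (limma's adjusted p = 5.62e-05 and 0.000311), and by 0.92 and 0.66 after quantile normalization. With the positive control covariate the differences of both genes were below 0.

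Prps1 read 7.92, 7.96 and 7.88 in combination, 7.57, 7.67 and 7.67 in anti-CD27 and 7.45, 6.93 and 6.83 in anti-PD-1/L1. The groups did not overlap, but anti-PD-1/L1 replicate 1 was close to anti-CD27. Prps1 was higher by 0.85 ± 0.14 in combination and by 0.56 ± 0.14 in anti-CD27 (limma's adjusted p = 0.000671 and 0.00677). After quantile normalization its values were 0.42 and 0.19, the second not called. Guk1, the guanylate kinase, had 5.34, 5.43 and 5.46 in combination, 5.33, 5.41 and 5.34 in anti-CD27 and 5.94, 6.05 and 5.90 in anti-PD-1/L1. It was highest on all anti-PD-1/L1 arrays, and it fell by 0.56 ± 0.06 in combination and by 0.60 ± 0.06 in anti-CD27 (limma's adjusted p = 5.96e-05 and 4.57e-05). After quantile normalization Guk1 fell by 0.82 and 0.86. Ppat and Gart rose in combination by 0.76 ± 0.07 and 0.71 ± 0.10 (limma's adjusted p = 3.46e-05 and 0.000245), and their differences in anti-CD27 were 0.18 and 0.21, not called. After quantile normalization Ppat was at 0.45 in combination and -0.08 in anti-CD27, and Gart at 0.35 and -0.11. Adsl, which splits off fumarate at 2 steps, and Adss, which leads to AMP, rose in both groups, by 0.48 and 0.56 in combination and by 0.29 and 0.44 in anti-CD27, and no call of either held after quantile normalization. Adsl was then at 0.11 and -0.05, and Adss at 0.14 and 0.07. Prps2 rose by 0.36 in combination and 0.35 in anti-CD27 (limma's adjusted p = 0.0395 and 0.0437), and stood at -0.07 and -0.03 after quantile normalization. Both calls of Prps2, and that of Adss in anti-CD27, held in 1 of the 9 fits that left out an array, the fit without anti-PD-1/L1 replicate 1, and were lost with only the 6 arrays compared. The adjusted p without an array reached 0.12 for Prps2 in combination, and 0.134 for Prps2 and 0.128 for Adss in anti-CD27. The call of Adss in combination was lost without anti-PD-1/L1 replicate 2 or 3 (adjusted p of up to 0.0514).

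All 4 folate enzymes other than Shmt1 were called higher in both groups than in anti-PD-1/L1. Mthfd1 was higher than in anti-PD-1/L1 by 1.74 ± 0.11 in combination and by 1.02 ± 0.11 in anti-CD27 (limma's adjusted p = 4.44e-06 and 8e-05), and by 1.69 and 1.04 after quantile normalization. In combination it was also the member that stayed called higher with the positive control covariate. Mthfd1l had 6.54, 6.54 and 6.89 in combination, 6.16, 6.17 and 6.17 in anti-CD27 and 5.16, 5.07 and 4.94 in anti-PD-1/L1. The 3 groups were far apart relative to their own spread. Mthfd1l was higher by 1.60 ± 0.10 in combination and by 1.11 ± 0.10 in anti-CD27 (limma's adjusted p = 3.5e-06 and 2.92e-05), and by 1.47 and 1.03 after quantile normalization.

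Mthfd2 read 6.52, 6.43 and 6.68 in combination, 6.26, 6.24 and 6.23 in anti-CD27 and 5.69, 5.59 and 5.61 in anti-PD-1/L1. Shmt2 read 7.12, 7.13 and 7.48 in combination, 6.88, 6.88 and 6.87 in anti-CD27 and 6.51, 6.15 and 6.26 in anti-PD-1/L1. In both mitochondrial enzymes the groups were separated in the same order. Mthfd2 was higher by 0.92 ± 0.07 in combination and by 0.61 ± 0.07 in anti-CD27 (limma's adjusted p = 8.99e-06 and 7.91e-05), and by 0.62 and 0.35 after quantile normalization. Shmt2 was higher by 0.94 ± 0.12 in combination and by 0.57 ± 0.12 in anti-CD27 (limma's adjusted p = 0.00012 and 0.00218). After quantile normalization its values were 0.52 and 0.19, the second not called. Shmt1 rose by 0.30 ± 0.08 in combination (limma's adjusted p = 0.00672), and its difference in anti-CD27 was 0.09, not called. After quantile normalization Shmt1 was higher by 0.55 and 0.33. In the fit described the 3 enzymes of serine synthesis differed among themselves. Psph fell by 0.66 ± 0.09 in combination and by 0.74 ± 0.09 in anti-CD27 (limma's adjusted p = 0.000292 and 0.000158), and by 0.91 and 0.99 after quantile normalization. Phgdh was called in neither comparison, and Psat1 rose by 0.26 ± 0.10 in combination (limma's adjusted p = 0.0454) but was at -0.10 after quantile normalization. That call of Psat1 held in 1 of the 9 fits that left out an array, the fit without anti-PD-1/L1 replicate 1, with an adjusted p of up to 0.149. After quantile normalization Phgdh was called lower in both groups and Psat1 in anti-CD27, so all 3 enzymes were then called lower in anti-CD27.

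The order combination, then anti-CD27, then anti-PD-1/L1, with no overlap between any arrays, held in 15 of 35 members, against 5.71% of all genes. These were Rrm1, Rrm2, Tk1 and Dck of deoxynucleotide supply, Cad, Umps and Ctps of pyrimidine synthesis, Adsl, Atic, Gmps and Prps1 of purine synthesis, and Shmt2, Mthfd1, Mthfd2 and Mthfd1l of the folate cycle. The order is that of the deposited values, and the share of all genes includes dim ones. Between anti-CD27 and anti-PD-1/L1, quantile normalization turned the sign of Tk1 and Adsl. The positive control covariate turned that of Dck, Umps, Adsl, Atic, Gmps and Prps1. Rrm1, Rrm2, Cad, Ctps, Shmt2, Mthfd1, Mthfd2 and Mthfd1l kept their sign under both.

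Other genes of the same metabolism were counted between combination and anti-CD27 in the same fit. Of 39 measured genes of nucleotide salvage, breakdown and transport, 1 was called higher, Uck2, a uridine and cytidine kinase (0.62 ± 0.10; limma's adjusted p = 0.0156), and 2 lower, the AMP deaminase Ampd3 (-0.38 ± 0.06; adjusted p = 0.015) and the nucleoside transporter Slc28a2 (-0.42 ± 0.07; adjusted p = 0.0198). Of 23 other folate and one-carbon genes, limma called 0 higher and 1 lower, Izumo1r, a folate receptor family protein known from T cells (-1.18 ± 0.14; adjusted p = 0.00654), with 6 higher at an unadjusted p under 0.05. The medians of these lists were 0.01 and -0.000, against 0.29 for the members. In combination both lists hold genes below the background controls, such as Gda (-1.55 less these controls) and Aldh1l2 (-0.55). All members lay above these controls there, the lowest being Shmt1 at 1.34. Among genes not called, Hprt differed by 0.59 and Ggh by 0.58. In the nucleotide list 21 genes lay above 0 and 18 below, and in the folate list 10 and 13. The part of signal level in these medians was not tested. Among 15 measured regulators, E2f8, a repressor of the E2F family, rose by 1.08 ± 0.16 (adjusted p = 0.015), while Myc differed by 0.22 and Atf4 by -0.10, both not called.

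Genes of S phase moved with the members. Of 17 S phase genes, 13 were called higher in combination than in anti-CD27, where 1.28% of all genes were, with a median of 0.90, and the largest differences were those of Mcm3 (1.30 ± 0.09; limma's adjusted p = 0.00069), Mcm5 (1.27 ± 0.16; 0.00686), Mcm2 (1.09 ± 0.09; 0.00135) and Mcm6 (1.09 ± 0.09; 0.00147), subunits of the replicative helicase. Gins2, Pold1, Mki67 and Top2a were not called. Array means of the S phase list ran from 6.81 to 7.15 in combination, from 5.92 to 6.12 in anti-CD27 and from 5.15 to 5.22 in anti-PD-1/L1. The S phase genes were listed together and get no test as a set. The part of these genes in the differences of the members between combination and anti-CD27 was not tested. Of the markers of other cell types, Itgam of the myeloid list (0.61 ± 0.05; adjusted p = 0.00102) and Gzmk of the NK list (2.06 ± 0.32; adjusted p = 0.0159), both also known from activated CD8 T cells, were called higher in combination than in anti-CD27. No other marker of the 6 lists, and none of the 7 CD8 T cell markers, was called in that comparison.

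Against anti-PD-1/L1 the same lists were called in both directions. Beside their counts, 19.0% of all genes were called higher and 53.3% lower in combination, and 17.1% higher and 53.7% lower in anti-CD27. Of the 39 other nucleotide genes, 12 (30.8%) were higher and 18 (46.2%) lower in combination, and 10 (25.6%) higher and 14 (35.9%) lower in anti-CD27. Samhd1, which breaks down dNTPs, had the largest difference of that list, with 1.77 ± 0.15 in combination and 2.00 ± 0.15 in anti-CD27 (limma's adjusted p = 1.83e-05 and 1.14e-05), and 1.53 and 1.78 after quantile normalization. Of the 23 other folate genes, 7 (30.4%) were higher and 12 (52.2%) lower in combination, and 6 (26.1%) higher and 14 (60.9%) lower in anti-CD27. Mtr, methionine synthase, led with 1.74 ± 0.05 in each (limma's adjusted p = 4.51e-08 and 5.87e-08), and 1.81 and 1.83 after quantile normalization. Sfxn1, the mitochondrial serine transporter, followed with 1.73 ± 0.13 and 1.33 ± 0.13 (limma's adjusted p = 7.75e-06 and 3.4e-05), and 1.43 and 1.07 after quantile normalization.

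Of the 17 S phase genes, 15 (88.2%) were higher in combination than in anti-PD-1/L1, and 11 (64.7%) higher and 1 lower in anti-CD27. Mki67 differed by 3.98 ± 0.35 in combination and by 2.90 ± 0.35 in anti-CD27 (limma's adjusted p = 1.91e-05 and 0.00011), and by 3.96 and 2.94 after quantile normalization. Of the 7 CD8 T cell markers, 4 (Cd8a, Cd8b1, Cd3e and Thy1) were higher, 1 (Cd3d) was lower and 2 (Cd3g and Cd247) were not called, in combination and in anti-CD27 alike. Cd3e was higher by 2.06 ± 0.17 in combination and by 2.17 ± 0.17 in anti-CD27 (limma's adjusted p = 1.47e-05 and 1.29e-05), whereas Cd3d fell by 0.57 ± 0.06 and by 0.33 ± 0.06 (8.04e-05 and 0.00184). The part of these genes in the differences of the members was not tested.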

How the data were processed

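Values came from 1 whole-transcript array per mouse, 3 mice a group. The authors deposited log2 values, 1 per probe set and array, for which the submitters' processing notes name RMA and oligo 1.38.0. That method subtracts background, gives all arrays a shared distribution of probe values and condenses the probes of a probe set, so a difference between arrays is relative to the bulk of probes. The sources used here name no genome build for the array.

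Of 72688 probe sets, 6732 were controls, and of 65956 transcript probe sets 31258 named 1 gene, 1492 several and 33206 none in the platform annotation. For 2108 entries older symbols were updated through a mouse gene table. Per gene the probe set with the highest mean over 9 arrays was kept, and probe sets naming several genes were kept for listed genes only. This gave 30711 genes with no filter on low values. The number of mice limits the precision.

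limma 3.58.1 in R 4.3.3 fitted 1 mean per group to all 9 arrays (6 residual degrees of freedom), with two-sided moderated tests and Benjamini-Hochberg adjustment over all genes. Adjusted p-values and 95% intervals come from this fit unless stated. It was tested on simulated data. Controls were compared by exact permutation tests in scipy 1.17.1. Alternatives were quantile normalization, the positive controls as a covariate, 3 choices of probe sets or dim genes, only the arrays compared, intensity trend with robust settings, array weights, replicate number as a block and leaving out each array, 18 in all. Same-numbered arrays of different groups had correlations of their deviations from group means between -0.196 and 0.161, so the numbers were not taken to pair mice.

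The members and lists were chosen with earlier results of these data known. Values on every array were given by rule for members called between combination and anti-CD27, for the largest and smallest difference of each branch there, and, against anti-PD-1/L1, for up to 3 members per branch whose call or direction differed from that. From each other list up to 4 called genes were named per comparison. Paics and Mki67 were added after their values were seen. Promoter sequences are RefSeq's (GRCm38.p6), searched in Python 3.11.15.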

Additional observations from a re-analysis of the deposited data

How the results depend on the processing

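Between combination and anti-CD27, the members called higher numbered 14 with only the 6 arrays compared, 20 with array weights, and 3 to 13 when each array was left out. The lowest count came without anti-CD27 replicate 1 or 2 (3 each), followed by 4 without combination replicate 2 or 3, and the highest without anti-PD-1/L1 replicate 1 (13). The cause was not tested. Rrm2, Ctps and Ppat were called in all 18 alternatives. Over all genes, 393 were called higher and 162 lower in the fit described, against 396 and 277 with the positive control covariate (70.8% and 58.8% of calls higher), 1226 and 428 with the 6 arrays, and 1818 and 700 with array weights. The numbers in the titles are not said to pair the mice. With the replicate block 6 members were called higher, Gart being the call lost, and no member's call changed in the other comparisons. Of all genes, 269 were then called higher and 109 lower in combination against anti-CD27.

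Against anti-PD-1/L1 the results depend on the scaling. Of all calls in combination, 26.3% were higher in the fit described, 43.9% after quantile normalization and 46.7% with the covariate. For anti-CD27 these shares were 24.2%, 40.9% and 44.8%. After quantile normalization 11 members were lower in combination than in anti-PD-1/L1, with a median of 0.25, and 13 lower in anti-CD27, with a median of -0.03. With the covariate 1 was higher (Mthfd1) and 1 lower (Prps2) in combination, with a median of -0.15. In anti-CD27 the covariate left 0 higher and 2 lower (Prps2 and Dck), with a median of -0.29. In combination quantile normalization turned Dut to -0.29, Dtymk to -0.37, Nme1 to -0.36, Impdh1 to -0.24, Prps2 to -0.07, Phgdh to -0.40, Psat1 to -0.10 and Paics to -0.04. Of these, Dut, Dtymk, Nme1, Impdh1 and Phgdh were then called lower in combination. There the covariate turned Dck to -1.18, Umps to -0.27, Gart to -0.45, Adsl to -0.17, Atic to -0.48, Gmps to -0.27, Adss to -1.39, Prps1 to -0.94, Prps2 to -1.43, Shmt1 to -0.02, Psat1 to -0.33, Nme1 to -0.62, Paics to -1.62 and Phgdh to -0.43. In anti-CD27 quantile normalization turned Adsl to -0.05, Impdh1 to -0.25, Prps2 to -0.03, Tk1 to -0.00, Ppat to -0.08, Gart to -0.11 and Pfas to 0.02. Not called in the fit described, Dut, Dtymk, Paics, Impdh1, Phgdh and Psat1 were then called lower and Shmt1 higher in anti-CD27. The covariate there turned Dck to -1.28, Umps to -0.45, Adsl to -0.29, Atic to -0.61, Gmps to -0.50, Adss to -1.31, Prps1 to -1.05, Prps2 to -1.26, Ppat to -0.29, Gart to -0.83, Shmt1 to -0.19, Tyms to 0.16, Dut to 0.07, Dtymk to 0.34 and Pfas to 0.15. Array weights turned Dtymk in combination to -0.00 and Psat1 in anti-CD27 to 0.00. The cause was not tested. The positive controls differ between all 3 groups without overlap, most between anti-PD-1/L1 and the others, so the covariate and the treatment cannot be told apart. Between combination and anti-CD27, Prps2 turned to -0.04 after quantile normalization, and with the covariate Prps2 turned to -0.17 and Adss to -0.08. No direction of a called member turned when an array was left out, and 12 values of members not called did. Impdh1 ran from -0.00 to 0.03 and Prps2 from -0.02 to 0.04 between combination and anti-CD27, Dtymk from -0.05 to 0.07 and Phgdh from -0.10 to 0.10 between combination and anti-PD-1/L1, and Tyms from -0.11 to 0.06, Paics from -0.28 to 0.13 and Psat1 from -0.16 to 0.05 between anti-CD27 and anti-PD-1/L1. Of 1887 values of single members under the alternatives, 1684 kept their direction and their side of the threshold. With the sign kept, 99 lost a call and 43 gained one. The other 61 turned sign, with or without a change of call.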
